A study of Macaca mulatta with 17 samples.

Results

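The genes described here are 38 markers and effectors of myeloid cells, that is of macrophages, monocytes and granulocytes, in the uterus of the fetal rhesus macaque. A gene was taken as measured where the probe description on the array gave its symbol or an older name, and 37 of the 38 genes had a probe (FCGR1A had none). C1QC was found under its older symbol C1QG and ELANE under ELA2, and 3 genes (STAB1, S100A12 and NCF4) were named through a gene ID or a "similar to" description. For the 9 genes with several probes, the brightest probe, by mean signal over the 17 arrays, was used.

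RNA from individual fetal uteri was hybridised to 17 one-color Agilent arrays, with 1 fetus on each. All fetuses were female, and their mothers were dosed by mouth each day, in fruit, with 400 µg/kg of deuterated bisphenol A (BPA), an estrogenic building block of polycarbonate and epoxy resins, or with the ethanol vehicle. Arrays represented 5 control and 5 BPA-exposed fetuses treated from gestational day 50 and delivered by cesarean section on day 100 (GD100), and 4 control and 3 BPA-exposed newborns treated from day 100 and delivered vaginally at about day 165 to 168 (GD165). Per the paper, fetuses were euthanized at once after delivery and newborns within a day of it. Gestational age, the exposure window, the mode of delivery and any time after birth therefore changed together and cannot be told apart. Uteri of stillborn fetuses were not on the arrays, and the GD165 newborns are also called fetuses below. The tissue was one side of a uterus split lengthwise, a mixture of all its cell types. In such bulk tissue, fewer cells of a type and less RNA per cell cannot be told apart. Each fetus was a separate animal, so the errors below include the spread between animals.

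Macrophages are resident in most fetal tissues, where they engulf dying cells and take part in the shaping of ducts, vessels and stroma. They are recognised by scavenger receptors, by the C1q chains that start the classical complement cascade, by the receptor for colony-stimulating factor 1, and by receptors for the constant part of antibodies. Some of these antibody receptors signal through adaptors that carry tyrosine activation motifs (ITAMs). Granulocytes share part of this equipment, such as lysozyme and the oxidase that makes superoxide, and carry serine proteases and peroxidases in their granules.

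Each array probe is 60 bases long, and a value is a statement about what its 60 bases bind. The first 30 bases, as the array files list them, are shown for the 7 genes on which the results with age turn, with G and C in capitals.
FCGR3A: aatGaGGtGGGGatGGaGaaGaCaGttGtt
FCGR2B: taGCGGCCattGttGCtGCtGtaGtGGCCt
ITGAX: GCttCaGGGCaCGCaGCatGaGaGGCtCtG
LYZ: ttCaGttGatCttGGGCaaaataCCaGCaG
CTSS: tCtGttGGtGtaGatGCGCGtCatCCttCt
ELANE: GCCCCGGtGGCaCtGtttGtaaaCtGGatC
C1QB: GGGCatGGaGGGtGCCaaCaGCatCttCtC
The 37 probes had between 20% and 60% G and C, with a median of 45.0% against 41.7% over all 20217 probes. None of them (0 of 37) shared a run of 18 bases with a probe of a differently named gene.

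Levels below are log2 of the processed signal after each array was scaled by its 75th percentile, and they are comparable between arrays for 1 gene but not between genes. Between 83.8% and 89.0% of the probe spots on an array were well above background. Of the 37 genes, 33 were well above background on all 17 arrays, which included the macrophage markers CD68, CD14, CSF1R, MRC1 and the C1q chains. CD163, a scavenger receptor for haptoglobin-hemoglobin complexes, was well above background on 0 arrays, with levels between 0.90 and 2.40. Its 2 probes have the same 60 bases, of which 20% are G or C, and the first 30 are shown because so few of them are capitals.
CD163: aCtttCaaaGGaattaaataaGtaaataaa
Of the 146 probes with no more G and C than this one, 72 were above background on no array and 51 on every array, while 9.2% of all probes were above background on none. MPO, the peroxidase of neutrophil granules, was well above background on 1 array (GD100 BPA-exposed replicate 5, at 4.87). Differences of these 2 genes are not read as fold changes, although both genes stay in the counts, ranges, medians and figures of the 37. MARCO was above background on 15 arrays and S100A12 on 14, and no member probe was saturated.

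Differences with age were asked first, in control fetuses and again in BPA-exposed fetuses, because the design held both ages under each treatment. The genes that were higher at GD165 in controls were the antibody receptors FCGR3A and FCGR2B, the integrin ITGAX, lysozyme (LYZ), cathepsin S (CTSS) and neutrophil elastase (ELANE). At an adjusted p below 0.01, 6 of the 37 genes were called higher, against 6.32% of all probes, and 0 were called lower, against 5.2% of all probes. At an adjusted p below 0.05, 10 genes were higher, against 11.3% of all probes, with C1QA, C1QB, CD68 and CD14 added. The difference was above 0 for 32 of the 37 genes, and its median was 0.43 on the log2 scale with a range from -0.73 (MPO, at background) to 2.67. Over all probes the median was 0.00 and 50.5% were above 0. Groups did not overlap for 6 of the 37 genes in the higher direction, against 9.51% of all probes, and for 0 in the lower direction, against 9.9%.

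In BPA-exposed fetuses 3 of the 37 genes were called higher at GD165 (FCGR3A, LYZ and C1QB), against 4.82% of all probes, and 0 were called lower, against 4.86%. At an adjusted p below 0.05 there were 9 genes, against 9.51% of all probes: C1QA, CD68, FCGR2B, TLR4, CTSS and ELANE joined those named. Again 32 genes lay above 0, with a median of 0.55 and a range from -1.08 (MPO, at background) to 2.81, while the median over all probes was -0.05 and 44.7% were above 0. All 9 genes without overlap between the groups were higher at GD165, against 11.7% of all probes in that direction and 15.4% in the other. The share of members called higher was thus 16.2% in controls, against 6.32% of all probes, and 8.11% in BPA-exposed fetuses, against 4.82%. No member was called lower. The BPA-exposed share rests on 3 genes. With slide as a fixed block 1 gene was called in each comparison, and the share of all probes was not counted there.

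**Figure D1:**
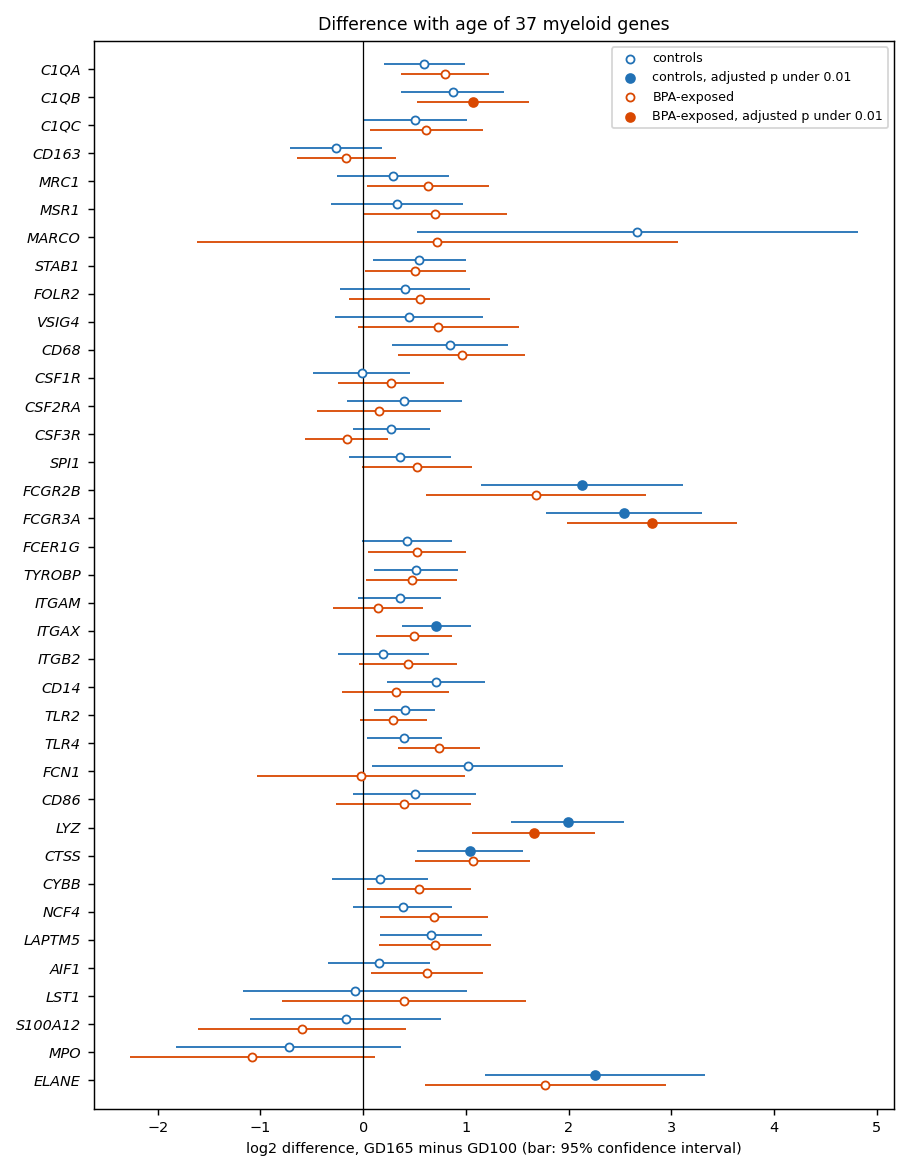
Log2 difference (horizontal axis, GD165 minus GD100) for each of the 37 genes (vertical axis), in controls (blue) and BPA-exposed fetuses (orange), with bars for the 95% confidence interval and filled points for an adjusted p below 0.01. Filled points are all to the right of 0, and FCGR3A and LYZ are the genes with filled points in both colors. CD163 and MPO are drawn although they were at background.

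FCGR3A, the low-affinity antibody receptor of macrophages, some monocytes and natural killer cells, had levels of 6.87, 6.66, 6.66, 5.25 and 5.87 in the GD100 controls. In GD165 controls the 4 levels were 8.79, 8.87, 8.71 and 8.84. In BPA-exposed fetuses they were 6.45, 6.97, 6.19, 5.81 and 5.88 at GD100 and 10.01, 8.40 and 8.81 at GD165. Every GD165 array was above every GD100 array under both treatments, and the GD165 controls lay close together. The level was 5.81-fold higher with age in controls (2.54 ± 0.36 (SE) on the log2 scale, adjusted p = 0.00018) and 7.04-fold higher in BPA-exposed fetuses (2.81 ± 0.39, adjusted p = 0.000259).

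FCGR2B, the inhibitory antibody receptor of macrophages and B cells, had levels of 5.90, 5.11, 6.12, 4.86 and 5.27 in GD100 controls and 8.45, 7.84, 6.85 and 7.20 in GD165 controls. These groups did not overlap, and the difference was 4.38-fold (2.13 ± 0.46, adjusted p = 0.00413). BPA-exposed fetuses had 5.14, 6.39, 5.44, 5.83 and 5.66 at GD100 and 6.93, 6.33 and 8.86 at GD165. There 1 GD165 array lay below the highest GD100 array, and the difference of 1.68 ± 0.50 did not pass the threshold (adjusted p = 0.0276). A second FCGR2B probe differed by -0.22 (adjusted p = 0.742) in controls and by -0.37 in BPA-exposed fetuses, so the probes disagreed. Its levels were 5.55, 6.57, 6.85, 6.79 and 5.51 in GD100 controls and 6.22, 6.18, 6.06 and 5.69 in GD165 controls. It was thus the dimmer probe on every GD165 control array but the brighter one on every GD100 control array except replicate 1. The first probe was chosen by mean signal over all arrays, GD165 included, so that choice was not independent of the age difference. The first 30 bases of the second probe, and of a probe named FCGR3B, are shown to be read beside those of FCGR2B and FCGR3A above.
FCGR2B second probe: aGtGtaGattGaattGCGtGGGGtCtGttt
FCGR3B: CaGGaaaCataGaaCtCaGaGCCaGatCCC
The probe named FCGR3B, which was not among the listed genes, was higher by 1.74 in controls (adjusted p = 0.000453) and by 1.43 in BPA-exposed fetuses (adjusted p = 0.00417). The probe named FCGR2A differed by 0.15 in controls (adjusted p = 0.868). Genes of this receptor family are close copies of each other, so the gene names of their probes are uncertain. The signal of the FCGR3B probe is therefore not assigned to a separate receptor of neutrophils. The longest run of bases shared by the first and second FCGR2B probes was 5, and it was 8 between the first FCGR2B probe and the FCGR3A probe. FCER1G and TYROBP, which encode ITAM adaptors, differed by 0.43 and 0.51 in controls (adjusted p = 0.16 and 0.0688) and by 0.53 and 0.47 in BPA-exposed fetuses.

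LYZ, the enzyme that cleaves bacterial cell walls, had levels of 11.13, 11.15, 10.83, 10.35 and 10.79 in GD100 controls and 12.98, 12.80, 12.30 and 13.29 in GD165 controls. In BPA-exposed fetuses they were 10.56, 11.36, 11.01, 11.36 and 11.44 at GD100 and 13.18, 12.14 and 13.10 at GD165. All 7 GD165 arrays were above all 10 GD100 arrays. The level was 3.97-fold higher in controls (1.99 ± 0.26, adjusted p = 9.96e-05) and 3.16-fold higher in BPA-exposed fetuses (1.66 ± 0.28, adjusted p = 0.00102).

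CTSS, a lysosomal protease that trims the invariant chain for antigen presentation, had levels of 9.33, 8.86, 9.16, 7.98 and 8.70 in GD100 controls and 10.16, 9.92, 9.56 and 9.74 in GD165 controls. In BPA-exposed fetuses they were 8.78, 9.43, 8.70, 9.15 and 9.13 at GD100 and 10.22, 9.72 and 10.36 at GD165. Groups of different age did not overlap under either treatment, and GD100 control replicate 4 was the lowest array. The difference was 2.05-fold in controls (1.04 ± 0.24, adjusted p = 0.00655), while 1.07 ± 0.26 in BPA-exposed fetuses lay just outside the threshold (adjusted p = 0.0106). The 2 dimmer CTSS probes, which share 12 bases, differed by 1.09 and 1.17 in controls without passing the threshold, and by 0.24 and 0.26 in BPA-exposed fetuses. Other effectors of the phagocyte had smaller differences: CYBB, the catalytic subunit of the oxidase, differed by 0.16 in controls and 0.55 in BPA-exposed fetuses, NCF4, a cytosolic subunit, by 0.38 and 0.69, and LAPTM5, a lysosomal membrane protein of leukocytes, by 0.66 and 0.70, none past the threshold.

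ITGAX, the alpha chain of complement receptor 4, had levels between 6.66 and 6.78 (median 6.71) in GD100 controls and levels of 7.48, 7.04, 7.42 and 7.78 in GD165 controls. These groups did not overlap, although the change was small, at 1.64-fold (0.71 ± 0.16, adjusted p = 0.00501). In BPA-exposed fetuses GD165 replicate 4 (6.83) lay within the GD100 range of 6.51 to 7.05, and the difference was 0.50 ± 0.17 (adjusted p = 0.0542). ITGAM, the alpha chain of complement receptor 3, differed by 0.36 in controls and 0.14 in BPA-exposed fetuses, and ITGB2, the beta chain that both share, by 0.20 and 0.44, none past the threshold.

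ELANE, the elastase of neutrophil granules, had levels of 6.50, 5.37, 5.48, 4.80 and 4.35 in GD100 controls and 7.65, 6.74, 7.94 and 7.89 in GD165 controls. The groups did not overlap, and the difference was 4.78-fold (2.26 ± 0.50, adjusted p = 0.00506). In BPA-exposed fetuses the GD100 levels were 5.20, 5.26, 5.62, 5.44 and 7.22 and those at GD165 were 6.44, 7.70 and 8.43. Here GD100 replicate 5 lay above the lowest GD165 array, and the difference of 1.77 ± 0.55 did not pass (adjusted p = 0.0325). The genes next to ELANE in the RefSeq annotation of assembly T2T-MMU8v2.0, AZU1 and PRTN3, also encode granule proteins, with no other annotated gene between them. AZU1 differed by 0.14 (adjusted p = 0.716) and PRTN3 by 0.29 (adjusted p = 0.24) in controls. S100A12, a calcium-binding protein of neutrophils and monocytes, differed by -0.17 in controls and by -0.60 in BPA-exposed fetuses.

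**Figure D2:**
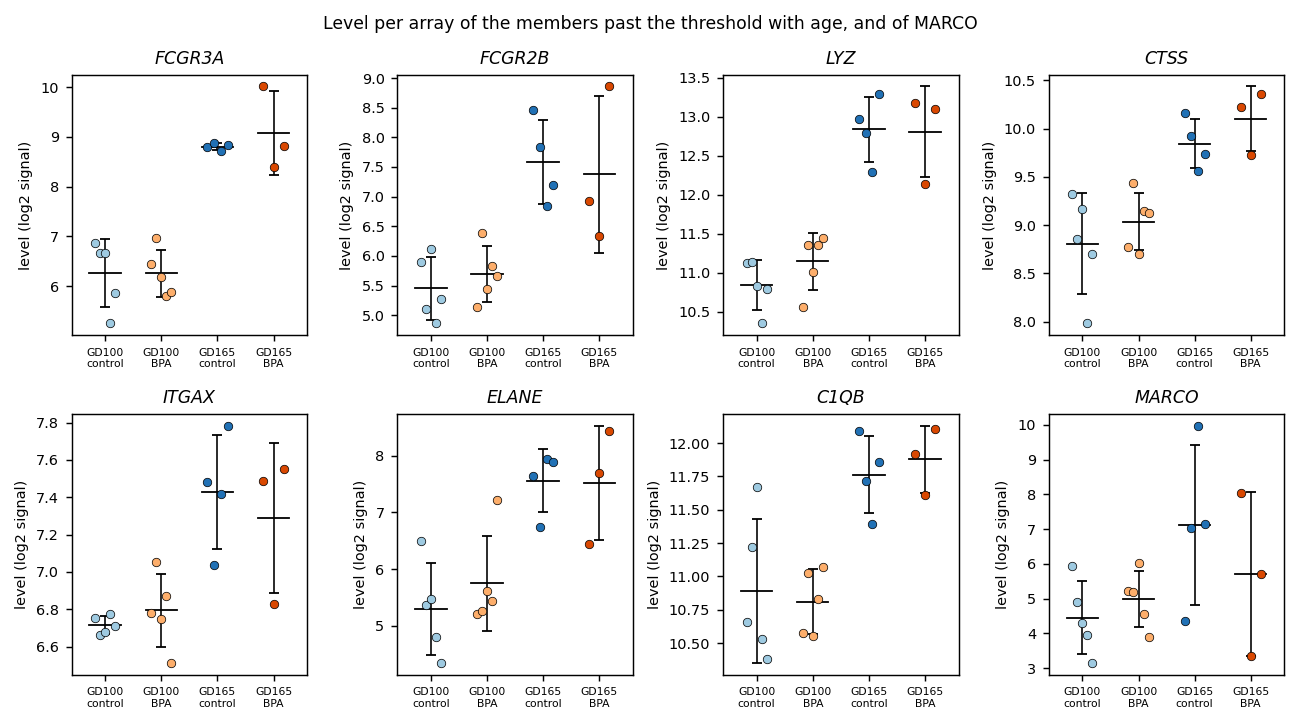
Level on each array (vertical axis, log2 scaled signal) in the 4 groups (horizontal axis) for the 7 genes called with age in either treatment and for MARCO, with a bar for the mean and whiskers for the SD over 3 to 5 fetuses. GD165 arrays lie above all GD100 arrays in both treatments for FCGR3A, LYZ and CTSS, whereas the 4 GD165 control arrays for MARCO run from 4.35 to 9.98.

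C1QA, C1QB and C1QC, the chains of complement C1q, lie next to each other in the T2T-MMU8v2.0 annotation, and all had differences above 0 under both treatments. C1QB had levels of 10.66, 11.22, 11.67, 10.53 and 10.38 in GD100 controls and 12.09, 11.71, 11.40 and 11.86 in GD165 controls. GD100 replicate 3 lay inside the GD165 range, and the difference of 0.87 ± 0.24 did not pass the threshold (adjusted p = 0.0154). In BPA-exposed fetuses C1QB had levels of 10.57, 11.03, 10.55, 10.83 and 11.07 at GD100 and 11.92, 11.61 and 12.11 at GD165. These did not overlap, and the level was 2.10-fold higher at GD165 (1.07 ± 0.26, adjusted p = 0.009). This call was lost under 14 of 31 alternatives, of which 11 left out a single array. C1QA differed by 0.60 and 0.80 in controls and BPA-exposed fetuses (adjusted p = 0.0317 and 0.0122), and C1QC by 0.50 and 0.62 (adjusted p = 0.153 and 0.105).

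Among the 8 scavenger and endocytic receptors, 7 had a difference above 0 under each treatment, with medians of 0.43 and 0.67, and none passed the threshold. CD68, a lysosomal glycoprotein used as a macrophage marker in histology, had levels between 11.73 and 13.01 (median 12.23) in GD100 controls and of 13.33, 13.07, 12.93 and 13.49 in GD165 controls. Its differences were 0.84 ± 0.27 (adjusted p = 0.0345) and 0.96 in BPA-exposed fetuses (adjusted p = 0.0292). MARCO, a receptor for bacteria and particles on some tissue macrophages, varied most: it had levels of 4.35, 7.03, 9.98 and 7.14 in GD165 controls, and 8.06, 3.35 and 5.72 in GD165 BPA-exposed fetuses. At GD100 it ran from 3.16 to 5.95 in controls and from 3.89 to 6.04 in BPA-exposed fetuses, so the groups overlapped. The MARCO difference of 2.67 ± 1.01 in controls was the largest of the 37 genes and did not pass the threshold (adjusted p = 0.0737), nor did 0.72 in BPA-exposed fetuses. The mannose receptor MRC1, the class A scavenger receptor MSR1, the clearance receptor STAB1, the folate receptor FOLR2 and the complement receptor VSIG4 differed by 0.29 to 0.55 in controls and by 0.51 to 0.73 in BPA-exposed fetuses. The 2 MRC1 probes differed alike in controls (0.29 and 0.28), and the 2 MSR1 probes less alike (0.33 and 0.75).

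None of the 3 colony-stimulating factor receptors, nor SPI1, was called with age. CSF1R, the receptor that macrophages need for survival, had levels between 11.46 and 12.33 (median 12.12) in GD100 controls and of 12.48, 12.23, 11.33 and 11.94 in GD165 controls. These groups overlapped, with a difference of -0.01 (95% confidence interval -0.49 to 0.46, adjusted p = 0.975), and the difference was 0.27 in BPA-exposed fetuses (-0.24 to 0.79). SPI1, which encodes the myeloid transcription factor PU.1, differed by 0.36 and 0.52, the granulocyte-macrophage factor receptor CSF2RA by 0.40 and 0.16, and the granulocyte factor receptor CSF3R by 0.27 and -0.16. CSF3R has 3 probes, of which 2 carry the same 60 bases. Those 2 differed from each other on the arrays by a median of 0.15 and at most by 0.52.

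Of the 5 pattern recognition and co-stimulation genes none was called. CD14, the co-receptor for lipopolysaccharide, had levels of 13.08, 12.26, 12.88, 12.39 and 12.47 in GD100 controls and 13.44, 13.60, 12.84 and 13.42 in GD165 controls, and it differed by 0.71 (adjusted p = 0.0343). In BPA-exposed fetuses its difference was 0.32 (adjusted p = 0.387). The lipopolysaccharide receptor TLR4 differed by 0.40 in controls (adjusted p = 0.116). In BPA-exposed fetuses TLR4 was between 8.33 and 8.76 at GD100 and at 9.32, 9.11 and 9.38 at GD165, without overlap (0.74, adjusted p = 0.0119). The lipoprotein receptor TLR2 and the co-stimulatory ligand CD86 differed by 0.40 and 0.50 in controls. FCN1, a lectin of monocytes and neutrophils, differed by 1.02 in controls (adjusted p = 0.115) and by -0.02 in BPA-exposed fetuses.

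The 2 small myeloid proteins, AIF1 (the macrophage marker IBA1) and LST1, differed by 0.16 and -0.08 in controls and by 0.62 and 0.40 in BPA-exposed fetuses, none past the threshold. LST1 was lowest on GD165 control replicate 3 with both of its probes, at 5.01 and 2.20. These 2 probes overlap by 27 bases, shown in capitals at the end of one and at the start of the other, since they are not separate readings of the transcript.
LST1 first probe: tctCGAGCCTCCATTCAAAATGATCATCAT
LST1 second probe: CGAGCCTCCATTCAAAATGATCATCATcaa

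Averaged over the 37 genes, each centered on its own mean, the arrays had values of 0.03, -0.23, -0.02, -0.80 and -0.48 in GD100 controls and 0.48, 0.29, 0.18 and 0.43 in GD165 controls. BPA-exposed fetuses had -0.36, 0.06, -0.41, -0.16 and -0.17 at GD100 and 0.54, -0.07 and 0.69 at GD165. Ages did not overlap in controls, while 1 GD165 BPA-exposed array (replicate 4) fell within the GD100 range. GD100 control replicate 4 was the lowest of the 17 arrays for 18 of the 37 genes, and GD165 BPA-exposed replicate 5 was the highest for 16. The arrays at the extremes therefore recurred from gene to gene.

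**Figure D3:**
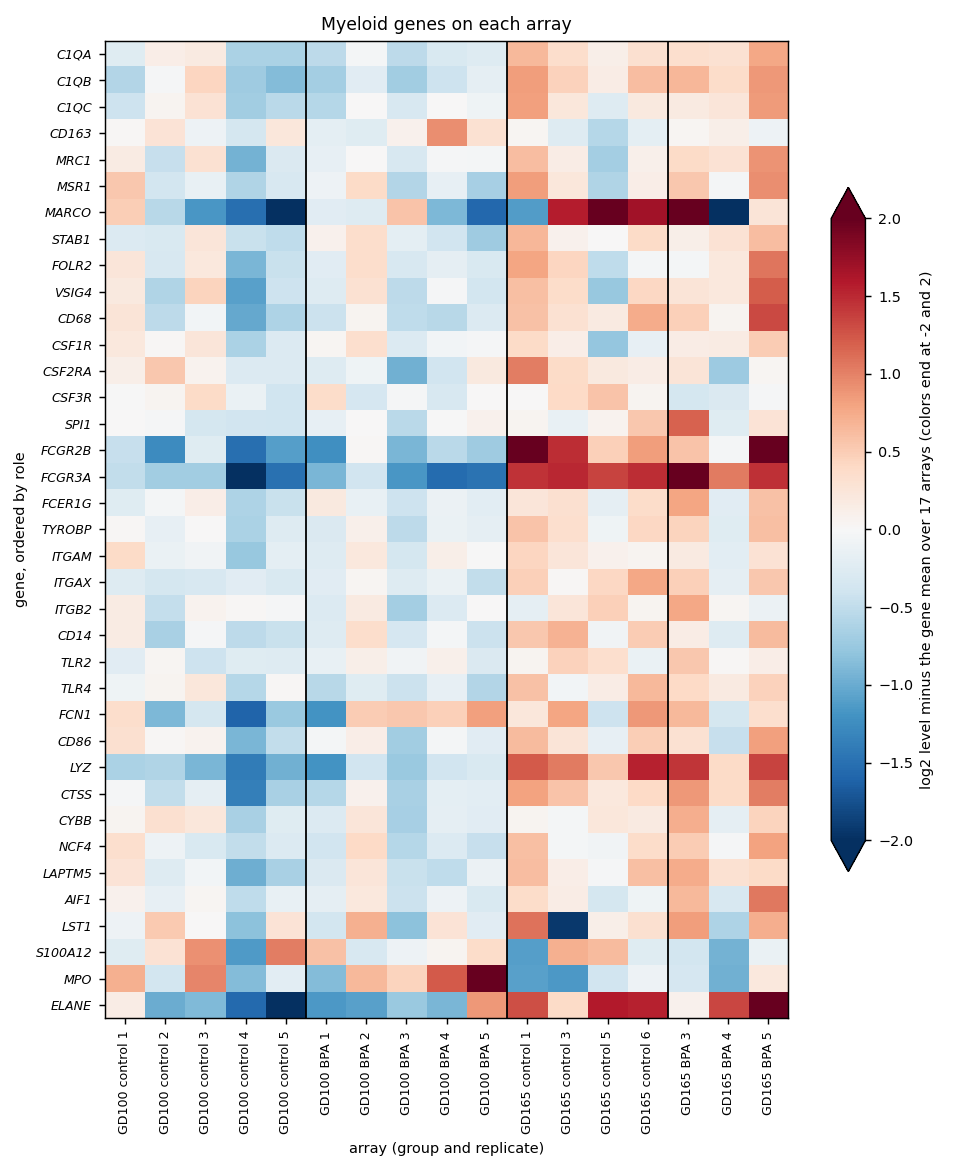
Level of each of the 37 genes (vertical axis, ordered by role) on each of the 17 arrays (horizontal axis, by group and replicate), as the log2 difference from the gene's mean over all arrays, with colors ending at -2 and 2. The column of GD100 control replicate 4 is the lowest, shown in blue, for 18 of the 37 genes, and FCGR2B, FCGR3A, LYZ and ELANE are mostly blue at GD100 and red at GD165.

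The slide was the batch that could be tested, as all arrays were scanned on the same day. Within the 2 slides that held control arrays of both ages, the median difference of the 37 genes was 0.19 on slide 3, with 26 genes above 0, and 0.98 on slide 5, with 33 above 0. Within slide 2, which held BPA-exposed arrays of both ages, it was 1.03, with 30 above 0. Each of these values compared 1 GD165 array with 1 GD100 array, so they are differences between single fetuses. The GD165 BPA-exposed array on slide 2 was replicate 5, the highest array for 16 of the 37 genes. FCGR3A differed by 2.20 and 2.92 within slides 3 and 5 and by 2.93 within slide 2, and LYZ by 1.97, 2.18 and 1.66. For C1QB the same values were 0.04, 1.71 and 1.04, so its control difference was near 0 on slide 3. With slide as a fixed block, in which GD165 control replicate 5 has a slide to itself and adds nothing, LYZ was the single gene called in each comparison (2.14 in controls, adjusted p = 0.000938, and 1.72 in BPA-exposed fetuses, adjusted p = 0.00794). FCGR3A kept its size there (2.40 and 2.96) with adjusted p = 0.0127 and 0.0133.

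The control count ran from 2 to 6 of 37 when single arrays were left out. It was 2 without GD100 control replicate 2, 4 or 5 or GD165 control replicate 1, and 3 without GD165 control replicate 6. The share of all probes called was not counted for these fits, so they do not show whether members stayed above it. In BPA-exposed fetuses the count was 2 to 5 when single arrays were left out, with 5 without GD100 control replicate 4, whose array enters through the shared estimate of the spread. LYZ and FCGR3A were called in both comparisons whichever array was left out. The other calls were lost without some single arrays, each time at an adjusted p of no more than 0.0438. FCGR2B was lost without GD100 control replicate 2, 4 or 5 or GD165 control replicate 1 or 3, and CTSS without any one of these or GD165 control replicate 6. ITGAX was lost without any one GD100 control array or GD165 control replicate 1, 5 or 6, and ELANE without the same arrays other than GD100 control replicate 1. C1QB in BPA-exposed fetuses was lost without any one array of either BPA-exposed group, GD100 control replicate 1, or GD165 control replicate 3 or 6.

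Related genes outside the 37 were counted to place them in their pathways. Of 9 macrophage lysosome and lipid genes with a probe, 6 were called higher at GD165 in controls and 4 in BPA-exposed fetuses, with none lower. GPNMB, a glycoprotein of phagolysosomes, was between 7.70 and 8.93 in GD100 controls and between 11.11 and 12.34 in GD165 controls, and it was higher by 3.37 (adjusted p = 5.56e-06) and by 3.29 in BPA-exposed fetuses (adjusted p = 1.42e-05). The proteases CTSB, CTSD and LGMN were higher by 0.50, 0.47 and 0.82 in controls, and the lysosomal protein precursor GRN by 0.40. CTSD, LGMN and GRN were also called in BPA-exposed fetuses (0.49, 0.80 and 0.59), and CTSB was not (0.41, adjusted p = 0.0205).

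Of 23 other myeloid surface receptors, 5 were called higher in controls and 3 in BPA-exposed fetuses. The fatty acid and lipoprotein receptor CD36 was higher by 2.18 and 1.92, the amplifying receptor TREM1 by 1.51 and 1.05, and LY96, the partner of TLR4, by 1.53 and 1.41. TLR8 and the formyl peptide receptor FPR1 were called in controls (1.38 and 0.86), and CD33 was not called (0.21). The oxidase partners CYBA and NCF1 differed by 0.01 and 0.18 in controls. Of 10 ITAM signalling genes 2 were called under each treatment: the kinase SYK (0.64 in controls), the phosphatase PTPN6 (0.75 and 0.59) and the adaptor LCP2 (0.86 in BPA-exposed fetuses).

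Of 15 growth factor and transcription factor genes, CEBPB (0.64 in controls) and CEBPD (0.85 under both treatments), which encode transcription factors of myeloid differentiation, were called higher, and CSF3, the granulocyte growth factor, lower in BPA-exposed fetuses (-0.54, adjusted p = 0.00529). CSF1, the ligand of CSF1R, differed by 0.40 (adjusted p = 0.0241), and IL34, its other ligand, had no probe. Of the granulocyte granule genes, 0 of 16 were called in controls, with a median of 0.04, and 1 was called lower in BPA-exposed fetuses (BPI, a protein that permeabilises bacteria, by -1.41, adjusted p = 0.00702), with a median of -0.51. Over the 6 related lists, 16 of 76 genes were called higher and 0 lower in controls, and 11 higher and 2 lower in BPA-exposed fetuses. The shares of all probes called were 6.32% higher and 5.2% lower in controls and 4.82% and 4.86% in BPA-exposed fetuses.

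Markers of other cells were counted beside these, in lists of which some had members called. Of 7 pan-leukocyte markers 2 were called higher under each treatment, and their mean level ran from 9.66 to 10.21 and 9.86 to 10.42 in GD100 controls and BPA-exposed fetuses, and from 10.61 to 10.90 and 10.38 to 11.21 at GD165. PTPRC, which encodes CD45, was higher by 1.20 without passing the threshold (adjusted p = 0.0777), and CORO1A differed by 0.03. Natural killer cells also carry FCGR3A. Of 7 of their markers 3 were called higher in controls and 2 in BPA-exposed fetuses, and their mean level was 8.43 to 8.78 and 8.47 to 8.69 at GD100 and 9.16 to 9.65 and 8.97 to 9.52 at GD165. Those called, named after their values were seen, were the cytotoxic effectors PRF1 (1.35 and 1.17) and GZMB (1.78 and 2.09) under both treatments and the receptor KLRB1 in controls (1.74). The other list members NKG7 and GNLY, which were not called, differed by 0.33 and 0.09 in controls. Mast cell markers (6 genes) had 1 called higher and 1 lower under each treatment, with CPA3 up by 3.41 and HDC differing by 0.57 in controls. Their mean level was 8.54 to 8.90 and 8.46 to 8.92 at GD100 and 8.97 to 9.75 and 9.47 to 10.17 at GD165. The part of these cells in the differences of FCGR3A and the other genes was not tested.

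T cell markers (8 genes) had 1 called higher in controls and 0 in BPA-exposed fetuses, with mean levels of 5.11 to 5.86 and 5.46 to 5.71 at GD100 and 5.63 to 6.37 and 5.51 to 6.18 at GD165. CD3D was not above background on any array, and CD3E differed by 0.52 in controls. B cell markers (7 genes) had 0 called, with MS4A1 differing by 0.96 in controls, and their mean levels, from 6.81 to 8.05 at GD100 and from 6.85 to 7.68 at GD165, overlapped. Erythroid markers (8 genes) had 1 called higher under each treatment, the adult globin HBB, by 6.46 in controls, whereas HBA2 differed by 0.03 and CA1 was at background. Their mean levels were 8.72 to 9.32 and 9.14 to 10.09 at GD100 and 9.0 to 10.14 and 8.39 to 9.59 at GD165. None of the 5 platelet markers was called in controls and 1 was lower in BPA-exposed fetuses, with PF4 and PPBP differing by -0.55 and -0.15 in controls and mean levels of 7.30 to 8.64 at GD100 and 7.11 to 8.05 at GD165. The T cell, B cell, erythroid and platelet lists thus overlapped between ages.

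Markers of the uterus itself were counted in the same way. Of 6 smooth muscle markers 2 were called higher in controls and 0 in BPA-exposed fetuses, with DES and ACTA2 differing by 0.19 and 0.26 and mean levels of 16.33 to 16.90 and 16.42 to 16.73 at GD100 and 16.84 to 17.35 and 16.73 to 17.30 at GD165. Of 6 stromal and Mullerian duct markers 1 was higher (ESR1, by 0.73) and 1 lower in controls and 1 higher in BPA-exposed fetuses, PGR was at background on all arrays, and mean levels were 11.46 to 11.88 at GD100 and 11.72 to 12.40 at GD165. Of 6 epithelial markers 4 and 2 were higher, with EPCAM at 1.23 and KRT8 at -0.21 in controls and mean levels of 11.84 to 12.57 at GD100 and 12.12 to 12.97 at GD165. Of 6 endothelial markers 1 was higher under each treatment, with PECAM1 and CDH5 differing by 0.44 and 0.21 and mean levels of 11.33 to 11.89 at GD100 and 11.75 to 12.54 at GD165. The smooth muscle, stromal and epithelial markers other than PGR and KRT8 (not above background on some arrays of 3 groups) were well above background on all 17 arrays.

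Skeletal muscle markers, which do not belong to the uterus, had 4 of 7 called higher in controls and 1 in BPA-exposed fetuses, with ACTA1 and CKM higher by 5.14 and 6.26 in controls, of which CKM did not pass. Their mean level was 6.38 to 7.0 and 6.59 to 8.99 at GD100 and 8.87 to 13.72 and 8.07 to 13.03 at GD165, highest on GD165 control replicate 5 and GD165 BPA-exposed replicate 5. None of the 7 squamous epithelium markers was called, with KRT5 differing by 1.26 and KRT13 by -0.76 in controls, and their mean level was 7.01 to 7.64 at GD100, 6.52 to 7.49 in GD165 BPA-exposed fetuses and 6.66 to 11.14 in GD165 controls, where replicate 6 was the highest. With these 3 arrays left out together, FCGR3A, FCGR2B and LYZ were called in controls (2.57, 2.69 and 2.04), and 2 members were called in BPA-exposed fetuses. The median difference of the 37 genes was then 0.64 in controls and 0.41 in BPA-exposed fetuses.

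**Figure D4:**
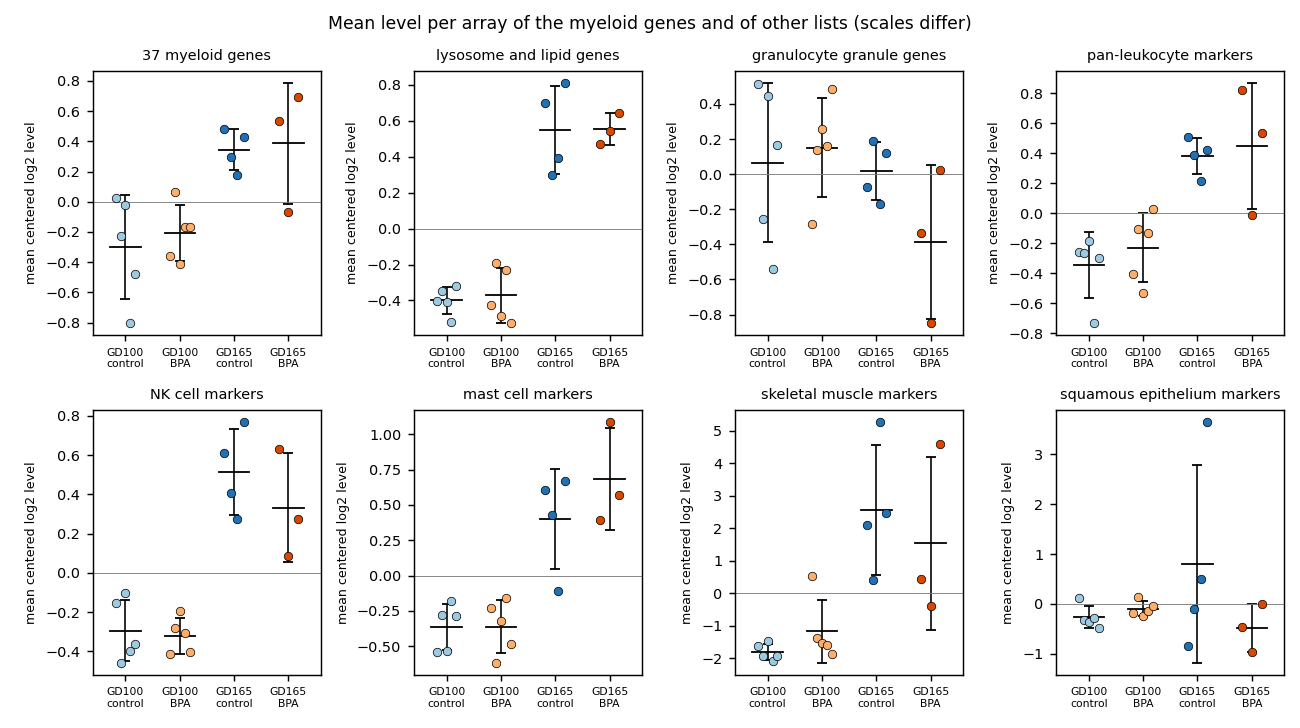
Mean centered log2 level per array (vertical axes, with different scales) of the 37 myeloid genes and 7 other lists in the 4 groups (horizontal axes), with bars for the mean and whiskers for the SD. Lysosome and lipid genes and natural killer cell markers separate the ages under both treatments, granulocyte granule genes do not, and single GD165 arrays stand apart in the skeletal muscle and squamous panels.

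BPA exposure was the question of the design, and each age was compared separately. The paper, with an error-weighted ANOVA, reported minimal differences with BPA at GD100 and significant ones at GD165. That ANOVA was not run here, and the counts below are those of limma. The comparisons with age and with BPA share the same groups, so their values are not independent of each other. At GD100, 0 of the 37 genes were called, as were 0.0% of all probes, and the smallest adjusted p over all probes was 0.578 (limma). The difference was above 0 for 23 genes, with a median of 0.09 against 0.01 over all probes. No member was without overlap between the groups, against 0.381% of all probes in the higher and 0.401% in the lower direction. FCN1 was the single gene with an unadjusted p below 0.05 in limma's test (0.0497), as had 3.79% of all probes. Its levels were 6.93, 5.69, 6.23, 4.97 and 5.83 in controls and 5.38, 7.09, 7.12, 7.05 and 7.41 in BPA-exposed fetuses. The other exposed arrays exceeded every control, while replicate 1 lay among the controls (0.88, 95% confidence interval 0.00 to 1.76). Within slides, each with 1 exposed array, FCN1 differed by 1.17 on slide 1, 1.72 on slide 2 and -0.84 on slide 3.

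At GD165, 0 of the 37 genes were called, as were 0.0% of all probes, with a smallest adjusted p over all probes of 0.118 (limma). The difference was above 0 for 24 genes, with a median of 0.11 against -0.02 over all probes. None was higher without overlap, against 2.07% of all probes, and 1 was lower without overlap, against 5.24%. That gene was CSF3R, which had levels of 8.45, 8.83, 9.01 and 8.49 in controls and 8.09, 8.15 and 8.41 in BPA-exposed fetuses. It differed by -0.48 (95% confidence interval -0.90 to -0.05), with an unadjusted p of 0.0301 and an adjusted p of 0.532 in limma's test. Within slide 5, with 2 exposed arrays and 1 control array, it differed by -0.33. Its probe with the same 60 bases differed by -0.44, whereas its dimmest probe, with other bases, differed by 0.31 (adjusted p = 0.782), so the probes disagreed in direction. An unadjusted p below 0.05 was found for this 1 member and for 8.61% of all probes. The lowest difference was that of MARCO (-1.42, adjusted p = 0.783) and the highest that of MRC1 (0.48, 95% confidence interval -0.15 to 1.10).

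For the genes that were higher with age, the BPA differences had intervals on both sides of 0. FCGR3A differed by -0.00 at GD100 (95% confidence interval -0.72 to 0.71) and by 0.27 at GD165 (-0.59 to 1.14). LYZ differed by 0.30 (-0.22 to 0.82) and by -0.03 (-0.66 to 0.60). Changes within these intervals were not excluded with 3 to 5 fetuses per group. The intervals are not limits of detection at the adjusted threshold. Within slides 1, 2 and 3 the median BPA difference of the 37 genes at GD100 was -0.04, -0.05 and -0.28, and within slide 5 at GD165 it was -0.32, with 10 genes above 0. The pooled medians of 0.09 and 0.11 thus had the opposite sign to the values within slides. Those values rest on few arrays: 1 exposed against 2 control on slide 1, 1 against 1 on slides 2 and 3, and 2 against 1 on slide 5.

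**Figure D5:**
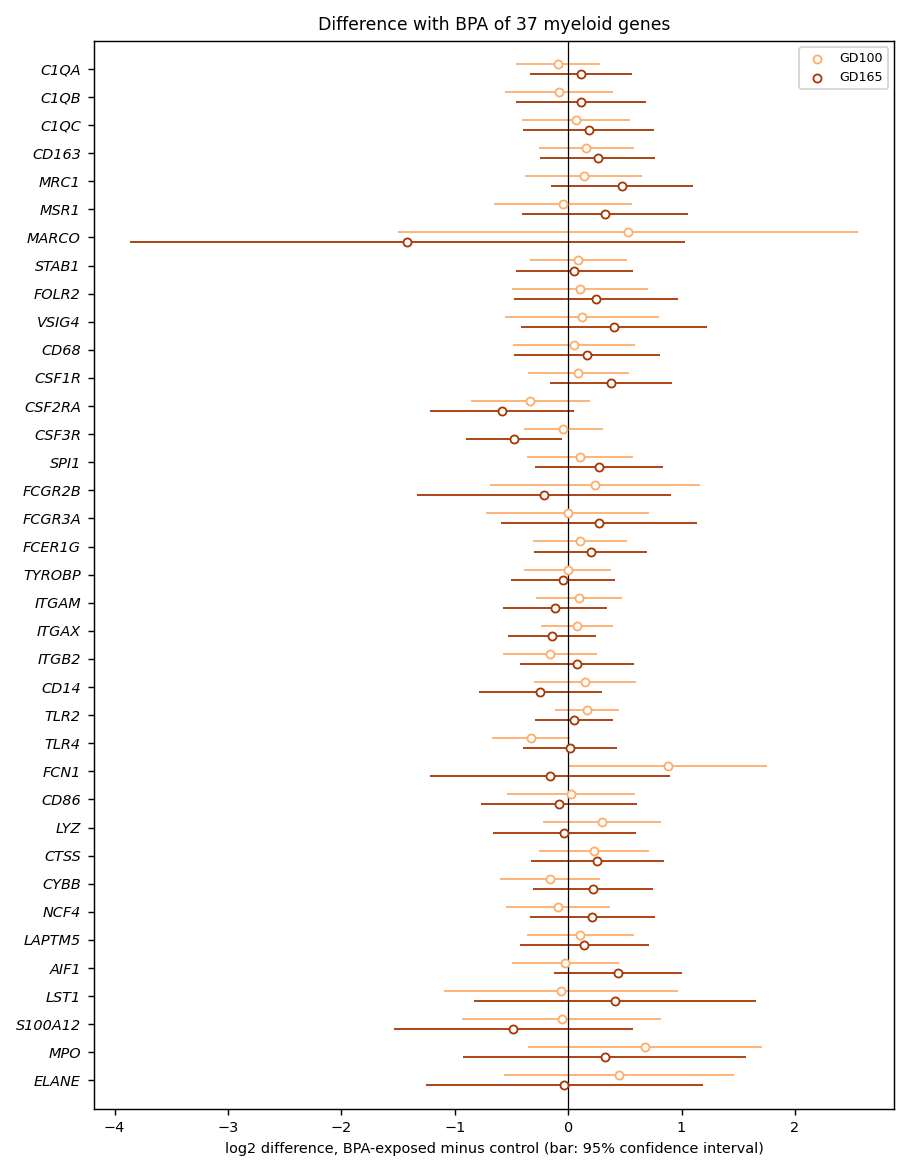
Log2 difference (horizontal axis, BPA-exposed minus control) for each of the 37 genes (vertical axis) at GD100 (light) and GD165 (dark), with bars for the 95% confidence interval. Open points mark genes that were not called, which is all of them, and the GD165 interval of CSF3R (-0.90 to -0.05) ends just below 0.

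Whether the difference with age itself depended on BPA was tested as an interaction. For that term 0 of the 37 genes were called, as were 0.0% of all probes, and the smallest adjusted p over all probes was 0.269 (limma). No member had an unadjusted p below 0.05, which 7.83% of all probes had, and the median interaction over the members was 0.10. The interaction of FCN1 was -1.04 (95% confidence interval -2.42 to 0.34) and that of FCGR3A was 0.28 (-0.85 to 1.40). The genes called in controls alone, FCGR2B, ITGAX, CTSS and ELANE, had interactions of -0.45, -0.22, 0.03 and -0.48, and C1QB, called in BPA-exposed fetuses alone, had 0.20, with adjusted p between 0.877 and 0.99.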

How the data were processed

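Single-color intensities from 17 rhesus arrays were deposited as scanner output, in which the authors had extracted spots with Agilent Feature Extraction 9.5 (per the submitters' processing notes) and corrected background and additive and multiplicative noise, giving the processed signal. Control spots and spots marked as outliers were left out. The series value table held the same intensities (711467 of 711467 values identical). The 2 spots of a probe were averaged, and log2 signals were taken relative to each array's 75th percentile, whose mean over arrays (12.62) was added back. The percentile itself was 5546 to 7324 and the median signal 17.5 to 24.2 times background, and the number of arrays limits the precision.

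Groups came from the sample labels. All 20217 probes were fitted in limma 3.58.1 (R 4.3.3) over 4 groups, two-sided, with Benjamini-Hochberg adjustment and a threshold of 0.01 taken from the study's methods, whose error-weighted ANOVA was not run. Scripts used Python 3.11.15, numpy 2.4.6 and pandas 2.3.3 and were tested on simulated data. Probes took gene names from the array description. The genes named were all listed genes with a probe, related genes past the threshold and the first 2 genes of each list. Results for some related genes and markers are not reported here. The members, lists and tests were chosen with earlier results of these data known. In 136 pairs of arrays none held identical values. No genome coordinates are given, because the build named in the files and their chromosome numbering differ.

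Alternatives were other scalings, background corrections, filters, blocks, weights and moderation, other probes, and single arrays left out.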

Additional observations from a re-analysis of the deposited data

Results flagged for a closer look

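Of 114 groups of 4 or 5 arrays tested over the 37 genes and their mean, 4 held an array far from the others of its group, against about 1 in 20 expected from chance. FOLR2 was at 10.9 on GD100 BPA-exposed replicate 2, with the other arrays of the group between 10.24 and 10.37. VSIG4 was at 11.72 on GD165 control replicate 5, with the others between 12.86 and 13.08. FCN1 was at 5.38 on GD100 BPA-exposed replicate 1, with the others between 7.05 and 7.41. ELANE was at 7.22 on GD100 BPA-exposed replicate 5, with the others between 5.20 and 5.62. The 3 GD165 BPA-exposed arrays were too few to be tested in this way.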

How the results depend on the processing

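The medians over the 37 genes moved by less than the spread between fetuses under every alternative run: when single arrays were left out they ran from 0.33 to 0.64 (age, controls), 0.40 to 0.78 (age, BPA-exposed), -0.05 to 0.15 (BPA, GD100) and -0.03 to 0.26 (BPA, GD165). The counts of members called with BPA or for the interaction were 0 throughout. Counts called with age moved. The share of all probes called was counted only for the main fit, at both thresholds. Whether members stayed above that share under the other settings was not tested. In controls the 6 genes became 1 with slide as a fixed block, 10 at an adjusted p of 0.05, 3 with the 3 arrays high in muscle or squamous markers left out (chosen after seeing the data), and 2 to 6 with single arrays left out. In BPA-exposed fetuses the 3 genes became 5 with quantile normalization, 5 with normexp background correction, 5 with trended and robust moderation, 6 with a filter on dim probes, 1 with slide as a fixed block, 9 at an adjusted p of 0.05, and 2 to 5 with single arrays left out. The filter changed the number of probes tested to 17149, and for the other settings the cause was not tested. FCGR2B fell to 0.96 (adjusted p = 0.059) when all its probes were averaged.

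The replicate number is shared between groups, but nothing in the labels makes it a pairing, and deviations of same-numbered arrays correlated between -0.17 and 0.12. With the replicate block, 2 genes were called in controls (FCGR3A and LYZ) and 2 in BPA-exposed fetuses, with medians of 0.43 and 0.70, and of 0.09 and 0.23 for BPA at GD100 and GD165. The precision is limited by 3 to 5 fetuses per group, and genes near background, such as MPO and CD163, have no usable fold change.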
